A study of Homo sapiens with 7 samples.

Results

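The clustered protocadherins are adhesion proteins encoded by neighbouring gene arrays on human chromosome 5. Described here are the 53 protein-coding genes of that chromosome whose RefSeq symbol starts with PCDHA, PCDHB or PCDHG, out of 19974 protein-coding genes on the chromosomes used. They form the alpha subcluster of 15 genes (chr5:140786140-141012347, hg38), the beta subcluster of 16 genes (chr5:141051374-141249365) and the gamma subcluster of 22 genes (chr5:141330514-141512975). Peaks were read in a window that runs 50 kb beyond these genes on either side (chr5:140736140-141562975, 827 kb). All members with a known strand lie on the plus strand. The 15 alpha genes share a single annotated end, as do the 22 gamma genes, while the 16 beta genes have 16 separate ends. Members were therefore read at their starts, which lie at least 3374 bp apart.

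Each alpha and gamma gene starts with its own large exon, which is spliced to a set of constant exons shared by the whole subcluster, and each beta gene is essentially a single large exon. The start of a gene is thus the start of its own promoter. In neurons a cell uses a few of these promoters, and the mixture of isoforms on its surface tells its own branches from those of other cells. Most of the promoters hold a conserved sequence element, and the choice among them is known to involve DNA methylation, the looping factor CTCF and cohesin. The C-type genes (PCDHAC1, PCDHAC2, PCDHGC3, PCDHGC4 and PCDHGC5), which lie nearest the constant exons of the alpha and gamma subclusters, are used more widely than the others. Distal enhancers are known among and beyond the constant alpha exons and beyond the gamma subcluster.

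Open chromatin was mapped by ATAC-seq, in which the Tn5 transposase cuts accessible DNA, in H1, an established human embryonic stem cell line and so a single genetic background. The cells were taken along a directed differentiation: as undifferentiated stem cells (hESC) and definitive endoderm (hDE), then as anterior foregut endoderm (hAFE), each with 2 libraries, and last as pharyngeal foregut endoderm (hPFE), with 1. The labels name no allele, agent or day that sets the stages apart further. The labels mark only hESC and hDE as data analysed again from elsewhere, so between these and the foregut stages stage and source cannot be told apart. Whether replicates came from separate cultures is not in the labels, so their spread may be technical. In bulk cells, fewer cells with an open start and less opening per cell cannot be told apart.

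Each library was deposited as a list of 298508 to 299374 peaks. Overlapping peaks were merged to regions, and a region was ranked within its library by its −log10 p, so that rank 1 is the strongest of 210555 to 261287 regions and a higher rank is a smaller number. The 50,000 strongest are called strict. The height of a summit is its number of cut sites over the genome-wide background of the library, which grows with depth and was 2.11 and 4.62 for hESC, 4.58 and 7.94 for hDE, 2.22 and 3.85 for hAFE and 5.66 for hPFE. A peak at a start is one whose summit lies within 1 kb of it. The weakest deposited summit was 3.32 and 3.46 times the background for hESC, 2.62 and 3.78 for hDE, 3.15 and 2.60 for hAFE and 2.47 for hPFE, and a start without a peak had no deposited summit above its library's limit. With 2 libraries against 2, no exact test can reach 0.05, so differences are given as values and as counts of starts whose ranks did not overlap between stages, beside the same share over the 15819 protein-coding genes with a known start, the members included. The stage markers followed the labels in part. Only those with a known start were read, 2 of 3 for hESC, 3 of 5 for hDE and 3 of 6 for the foregut stages. POU5F1, SOX17, FOXA2, PAX1 and EYA1 were thus not read. NANOG, a pluripotency gene, ranked 42567 and 26833 for hESC, 59567 and 65988 for hDE and 199703 in hAFE replicate 2, with no peak in hAFE replicate 1 or hPFE, while SOX2, another, ranked 15993 and 9303, then 31843 and 91792, then 28855 and 14221, and 22143, so that hESC and hAFE overlapped. GATA6, an endoderm gene, was highest in both hDE libraries (5499 and 10690 against 20755 to 31074 elsewhere), but EOMES in hDE (8113 and 13366) overlapped hAFE (29149 and 12642), and CXCR4 in hDE (12959 and 40225) overlapped hESC (13968 and 18275). Of the foregut markers, PAX9 had a peak only in hPFE (rank 90872), TBX1 was highest in hPFE (37181), and HOXA3 had none in any library.

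The promoter windows of 47 members were in the RefSeq table of GRCh38.p14 (PCDHA3, PCDHA13, PCDHB6, PCDHB11, PCDHGA12 and PCDHGC5 were not). The following stretches of 24 bases are shown because they carry what the promoters of each class share, the core CGCT of the conserved element, printed in capitals on the plus strand, 5′ to 3′. They were aligned on that core by their likeness to each other. In the lines, alpha genes come before beta, gamma B, gamma A and C-type genes.
PCDHA1 (chr5:140786088-140786111): tggccacatgatgtCGCTgtacac
PCDHA2 (chr5:140794783-140794806): tagccacatgatgtCGCTgtccac
PCDHA4 (chr5:140806981-140807004): gagccacatgatgtCGCTctttac
PCDHA8 (chr5:140841132-140841155): aagccacatgatgtCGCTgtctac
PCDHB4 (chr5:141121725-141121748): aagacgcagggtggCGCTgcaggc
PCDHB5 (chr5:141135181-141135204): aggacgcctggtggCGCTgcaggc
PCDHB15 (chr5:141245316-141245339): acaacgcatggtggCGCTgcaggc
PCDHGB4 (chr5:141387619-141387642): ctgactctgggcgcCGCTgttggc
PCDHGB6 (chr5:141407926-141407949): gagcctctgggcgcCGCTgtcggc
PCDHGA4 (chr5:141354962-141354985): aagactctgggtgtCGCTgttcac
PCDHGA6 (chr5:141373837-141373860): aggactctaagcgtCGCTgttgac
PCDHGC3 (chr5:141475882-141475905): gggactctgtgtgcCGCTgtcggc

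The classes differed in the letters before the core. The word CATGATGTCGCT was in 8 of 11 alpha promoters and in no other of the 15813 promoters searched (0.0506% of all), on either strand. The word GGTGGCGCTGCA was in 10 of 14 beta promoters and in 12 of all promoters (0.0759%), and CTCTGGGCGCCG was in 5 of 7 gamma B promoters and in 14 of all (0.0885%). The word AGCGCCGCTGTT was in 4 of 11 gamma A promoters and in no other. These words were picked as the most shared of 12 bases in their class, and in every member with its class's word except PCDHGB7 the word lay in the aligned element, over the core. The core CGCT alone, on either strand, was in 46 of 47 member promoters but also in 81.2% of all promoters. The core of the CTCF motif, read as a single strict word of 12 positions on either strand, was in 1 of 47 member promoters and in 2.69% of all. The promoter with it was that of PCDHB9, where the word lay inside the aligned element and ended on the first base of its core. Sites that differ from this word were not searched for. Whether the other member promoters hold a CTCF site, in the element or elsewhere, was therefore not tested.

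Each element was scored against the letter frequencies of all aligned elements, summed over its 24 positions as log odds. The elements were aligned by that same likeness, so a high score in the members is in part built in. A score of at least 10 was found in 42 members, and by the same search in 1.91% of all 15813 promoters, the members included. It was found in all 11 gamma A promoters searched, 13 of 14 beta, 10 of 11 alpha, 6 of 7 gamma B and 2 of 4 C-type promoters. The gamma B promoter below that score was of PCDHGB7 (−4.54). Its aligned stretch has the same bases as those just after the element of PCDHGB6, and its class's word lies outside that stretch. The alignment may thus have missed the element of PCDHGB7. The promoters of PCDHGA5 and PCDHGA6 had it although neither start had a peak in any library, and so had PCDHA1 and PCDHA5. Carrying the element was therefore not the same as having a peak. The 250 bases before the starts of PCDHGA6 and PCDHGB6 are printed with the element in capitals. PCDHGA6 had no peak in any library and PCDHGB6 a strict region in all 7, so they stand for extremes of the gamma A and gamma B classes. The classes overlap, since PCDHGA11 had a peak in 4 libraries and PCDHGB3 in 1.
PCDHGA6 (chr5:141373641-141373890, plus strand): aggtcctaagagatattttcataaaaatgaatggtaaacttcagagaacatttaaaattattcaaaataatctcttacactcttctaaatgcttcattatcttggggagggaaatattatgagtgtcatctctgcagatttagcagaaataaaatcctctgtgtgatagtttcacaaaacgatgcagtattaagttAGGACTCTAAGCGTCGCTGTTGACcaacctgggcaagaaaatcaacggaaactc
PCDHGB6 (chr5:141407771-141408020, plus strand): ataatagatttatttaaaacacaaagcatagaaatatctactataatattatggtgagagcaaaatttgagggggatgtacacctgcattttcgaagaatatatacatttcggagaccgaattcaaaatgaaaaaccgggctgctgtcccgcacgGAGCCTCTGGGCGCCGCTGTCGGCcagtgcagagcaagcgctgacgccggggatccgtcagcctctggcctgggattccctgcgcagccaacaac

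The promoter windows of 300 bases differed in base composition. PCDHGA6 had a GC content of 36.0% and 5 CG dinucleotides, and PCDHGB6 had 50% and 16, the most of the gamma B promoters. The number ran from 2 to 12 in gamma A promoters and from 7 to 16 in gamma B promoters. The median GC content was 38.3% in 11 gamma A promoters, 36.0% in 11 alpha, 40.9% in 14 beta, 48.3% in 7 gamma B and 61.9% in 4 C-type promoters, against 62.7% over all 15813. The median number of CG dinucleotides was 5, 7, 7.5, 11 and 20.5 in the same order of classes, against 22 over all promoters, so that only the C-type promoters came near the genome's usual composition. Across 47 members the number of libraries with a peak at the start went with the number of CG dinucleotides (Spearman's rho 0.490, and 0.390 over 43 members without the C-type genes). All points share the same 7 libraries and members of a class share sequence, so this is a description across genes.

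**Figure D1:**
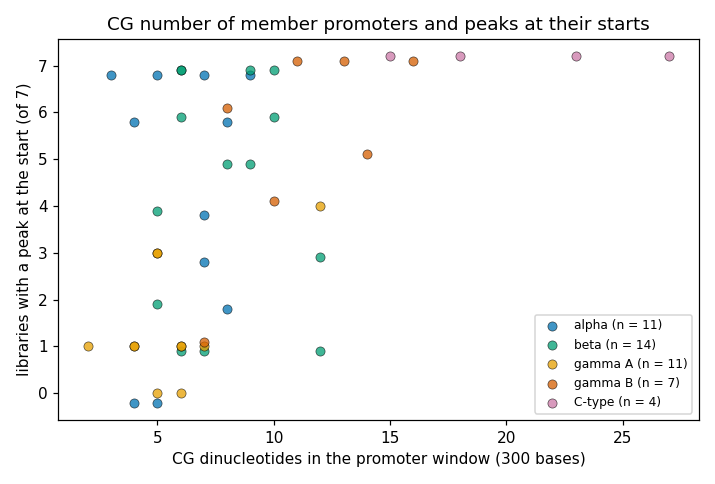
CG dinucleotides in the 300-base promoter window of 47 members (horizontal axis) against the number of libraries, of 7, with a peak at the start (vertical axis, classes shifted slightly so that points do not hide each other). The 4 C-type genes shown have 15 to 27 CG dinucleotides and a peak in all 7 libraries, and no gamma A gene has a peak in more than 4.

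A peak in every library was less common at member starts than at gene starts in general. Of the 53 members 15 had a peak at the start in all 7 libraries and 7 had a strict region there in all 7, against 70.4% and 53.5% of all genes. A peak in at least 1 library was found at 47 members, or 88.7%, close to the 89.5% of all genes. The 15 were PCDHA2, PCDHA4, PCDHA11 and PCDHA12 among the alpha genes, PCDHB1, PCDHB2, PCDHB5 and PCDHB16 among the beta genes, PCDHGB4, PCDHGB6 and PCDHGB7 among the gamma B genes and 4 of the 5 C-type genes. No gamma A gene was among them. Nor was PCDHA3, PCDHA13, PCDHB6, PCDHB11, PCDHGA12 or PCDHGC5, which were kept on an assumed plus strand. Other genes outside the promoter table were left out, so in this the members and all genes are not alike. The 6 members with no peak in any library were PCDHA1, PCDHA3, PCDHA5, PCDHGA5, PCDHGA6 and PCDHGC5.

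**Figure D2:**
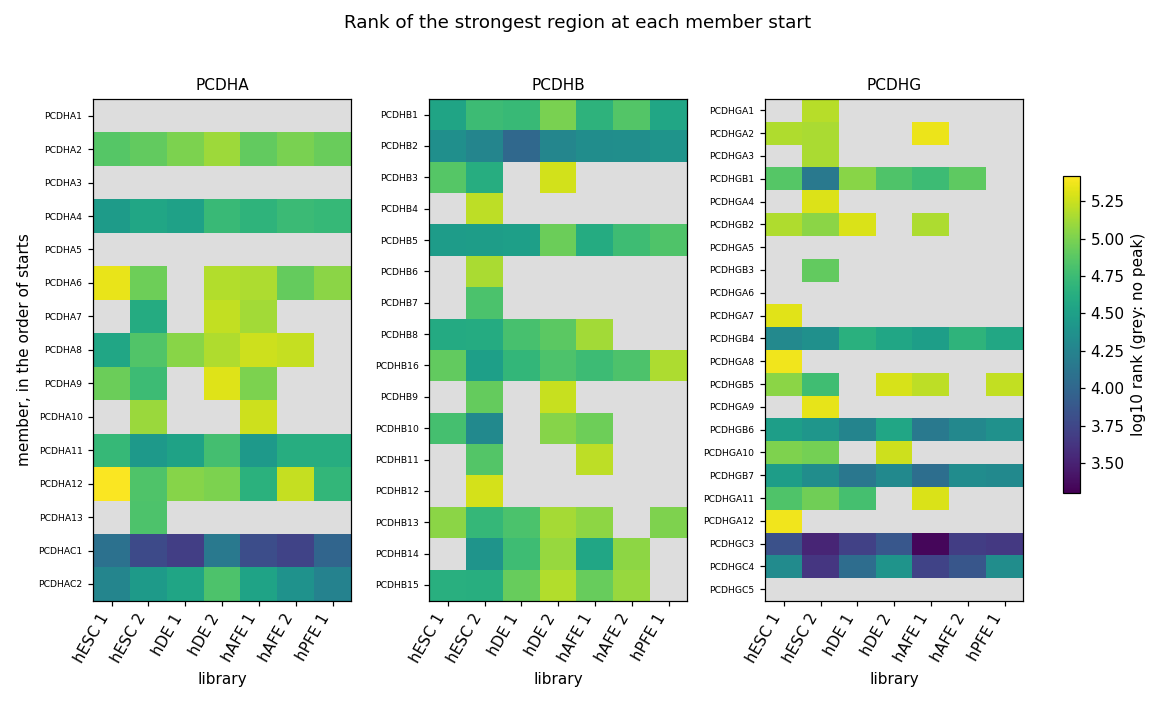
Rank of the strongest region with a summit within 1 kb of each member start (log10 scale, darker is stronger, grey is no peak), for 53 members in their order on the chromosome and 7 libraries. PCDHAC1, PCDHGC3 and PCDHGC4 are dark in every library, and the gamma A rows are mostly grey outside hESC.

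The C-type genes PCDHGC3, PCDHAC1 and PCDHGC4 had the strongest starts of the 53 by median rank. PCDHGC3, the C-type gene nearest the variable gamma genes, ranked 6735 and 3310 for hESC, 5081 and 7457 for hDE, 2183 and 4838 for hAFE and 4455 for hPFE. Its summit height was 22.7 and 58.7 times the background for hESC and 26.0 for hPFE, and both hAFE and hPFE ranked above both hDE libraries while the other stages overlapped. PCDHAC1 ranked 12318 and 5965 for hESC, 4944 and 14266 for hDE, 6272 and 5355 for hAFE and 9772 for hPFE, so its replicates differed as much as its stages. PCDHGC4 ranked 21030 and 4327 for hESC, 11467 and 25145 for hDE, 5331 and 7355 for hAFE and 21823 for hPFE. Both hAFE libraries of PCDHGC4 ranked above both hDE libraries and above hPFE, but its hESC replicates spanned most of that range. PCDHAC2 ranked 18240 and 28422 for hESC, 35171 and 66726 for hDE, 34132 and 24119 for hAFE and 17231 for hPFE. It was lowest in hDE and highest in hPFE, with no overlap between either of these stages and any other. PCDHGC5, the last gene of the array, had no peak in any library, in contrast to the other 4.

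The gamma A and gamma B genes are interspersed along the array and differed at their starts. Gamma B starts had a peak in a median of 6 of 7 libraries and gamma A starts in a median of 1. PCDHGB7 ranked 30471 and 22027 for hESC, 13721 and 20063 for hDE, 11663 and 21606 for hAFE and 20189 for hPFE. It was the one member whose hDE ranks were both higher than both hESC ranks. PCDHGB6 ranked 30504 and 25793 for hESC, 18196 and 35955 for hDE, 14375 and 19427 for hAFE and 23555 for hPFE, and PCDHGB4 ranked 19798 and 22981, then 44607 and 36034, then 31002 and 48065, and 36913. PCDHGB4 was thus highest in both hESC libraries. The strict starts of PCDHGB4, PCDHGB6 and PCDHGB7 contrast with 0 strict gamma A starts in any library. Between them, PCDHGB5 had weaker peaks, at ranks 111782 and 59241 for hESC, 194309 in hDE replicate 2, 160754 in hAFE replicate 1 and 168657 for hPFE, and none in the other two. The promoter windows of PCDHGB4 and PCDHGB5 share an unbroken run of 78 bases, longer than a read of 75, and those of PCDHGB6 and PCDHGB7 a run of 38. Reads within the longer run could have come from either gene, so the values of PCDHGB4 and PCDHGB5 are uncertain to that extent.

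Among the beta genes, PCDHB2 was the strongest. It ranked 22709 and 18327 for hESC, 10467 and 18881 for hDE, 21902 and 22252 for hAFE and 24785 for hPFE, and was strict in all 7 libraries. PCDHB5 ranked 29851 and 30288 for hESC, 31432 and 88402 for hDE, 40335 and 57466 for hAFE and 68139 for hPFE. PCDHB1, the gene at the start of the array, which stands apart from the other beta genes in sequence and lacked the aligned element, ranked 34397 and 56549, then 53349 and 99031, then 46972 and 70860, and 35964. Most beta starts were weaker and came and went between libraries: the number with a peak was 9 and 16 of 16 for hESC, 8 and 11 for hDE, 10 and 6 for hAFE and 5 for hPFE. PCDHB8 and PCDHB13 share a run of 55 bases in their promoter windows.

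Among the alpha genes below the C-type, PCDHA11 and PCDHA4 were the strongest. PCDHA11 ranked 52675 and 27414 for hESC, 33536 and 60983 for hDE, 27261 and 41999 for hAFE and 41956 for hPFE, and every stage overlapped the next. PCDHA4 ranked 28940 and 35549 for hESC, 32544 and 54645 for hDE, 48106 and 55286 for hAFE and 52249 for hPFE. The strongest summit of PCDHA4 lay 550 to 580 bp past the start in both hESC and both hDE libraries and in hAFE replicate 2. In hAFE replicate 1 and hPFE it lay 41 and 85 bp before the start. PCDHA12 ranked 255710 and 68640, then 108478 and 100542, then 44764 and 172038, and 50762, and its hPFE rank was higher than both hESC ranks. Its hAFE replicates lay on either side of both hDE libraries.

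Summits sat at set distances from the starts, and the distances differed between classes. Of the 373 peaks within 1 kb of a member start, 46.9% had the summit within 100 bp of it, against 24.9% of the peaks at all gene starts. In alpha genes outside the C-type, 42.4% of 92 peaks lay there, with a median of 44 bp before the start, and a further 43.5% lay from 500 to 650 bp past the start, with a median of 582.5 bp. The latter position was used at all 10 of these alpha genes that had any peak, and 8 of them had summits at both positions. The rank given for an alpha start can thus come from either position, and from different positions in different libraries. None of 117 beta, 18 gamma A or 59 gamma B peaks fell in that range, where 7.03% of the peaks at all gene starts did. At the C-type genes 10.3% of 87 peaks did. Beta and gamma B peaks had a second position instead, from 150 to 350 bp past the start, with 24.8% and 37.3% of their peaks there against 16.5% at all gene starts. The ranges were set after the positions had been seen. The bases at the exon position lie outside the promoter windows and were not analysed here.

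**Figure D3:**
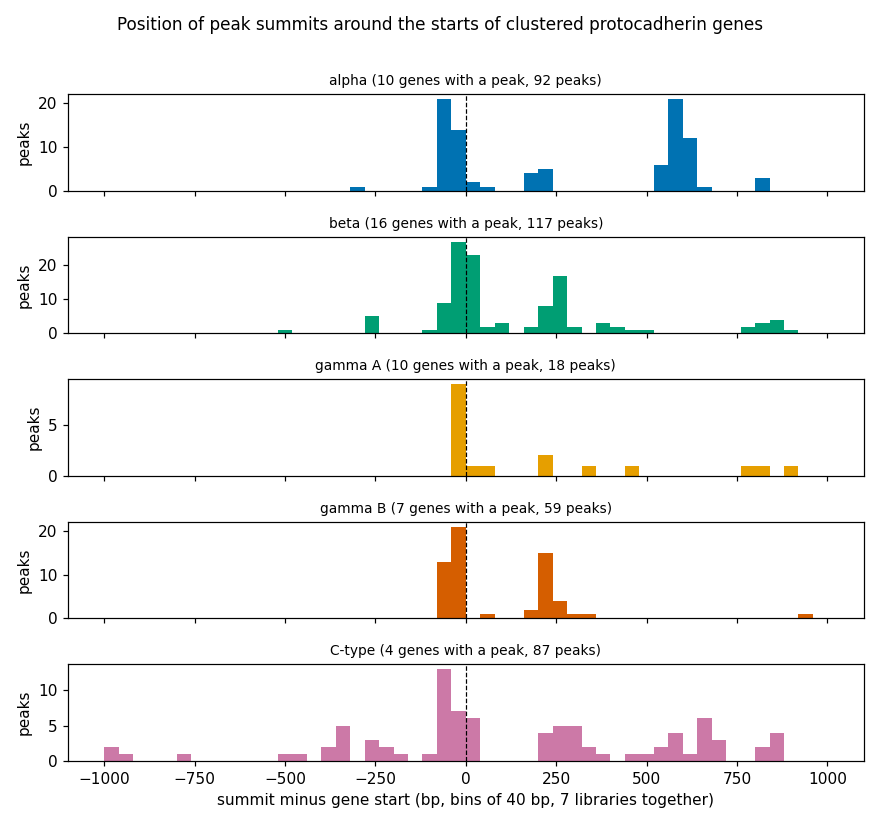
Number of peak summits (vertical axis, its own scale in each panel) by distance from the gene start (horizontal axis, bp, bins of 40 bp), for the 5 classes of members over the 7 libraries. Alpha genes show a cluster near the start and another near 582.5 bp past it, and the other non-C-type classes do not have the latter.

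Summits within 100 bp of the core of the aligned element were also measured from that core, a limit that itself keeps the distances short. The core of the element lay before the start in all but PCDHB8 among the 42 members. In alpha genes the strongest summit within 100 bp of the core lay a median of 14.5 bp from it and 44.5 bp from the start (38 summits of 8 genes), and in the C-type genes PCDHGC3 and PCDHGC4 the medians were 14 and 62.5 bp (14 summits). In beta genes they were 25 and 24 bp (51 summits of 13 genes), in gamma A genes 33 and 30 bp (11 summits of 5 genes), and in gamma B genes 35 and 31 bp (28 summits of 6 genes), so in these the summit was about as near to the start as to the core.

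More member starts had a peak in hESC than at later stages. The number was 32 and 44 of 53 for hESC, 23 and 29 for hDE, 31 and 20 for hAFE and 18 for hPFE. Both hESC libraries lay above the other 5, hESC replicate 1 by a single gene over hAFE replicate 1, and the replicates of each stage differed by 6 to 12 genes. Over all genes the share with a peak did not fall in this way, at 80.5% and 79.1% for hESC, 78.4% and 75.6% for hDE, 78.7% and 79.3% for hAFE and 79.1% for hPFE. The strict starts numbered 14 and 19 for hESC (67.3% and 65.4% of all genes), 11 and 7 for hDE (66.7% and 57.3%), 14 and 9 for hAFE (65.5% and 67.5%) and 10 for hPFE (66.4%), and here hESC replicate 1 and hAFE replicate 1 were level. hESC replicate 2, with a background of 4.62, had 44 member starts with a peak, and hDE replicate 1, with one of 4.58, had 23. The background grows with depth, and the part of depth in these numbers was not tested. The gamma A genes had peaks at 6 and 7 of 12 starts for hESC, 1 and 1 for hDE, 2 and 0 for hAFE and 0 for hPFE. Their hESC peaks were weak, with median ranks of 177840 and 142287. The C-type genes had peaks at 4 of 5 starts in every library.

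**Figure D4:**
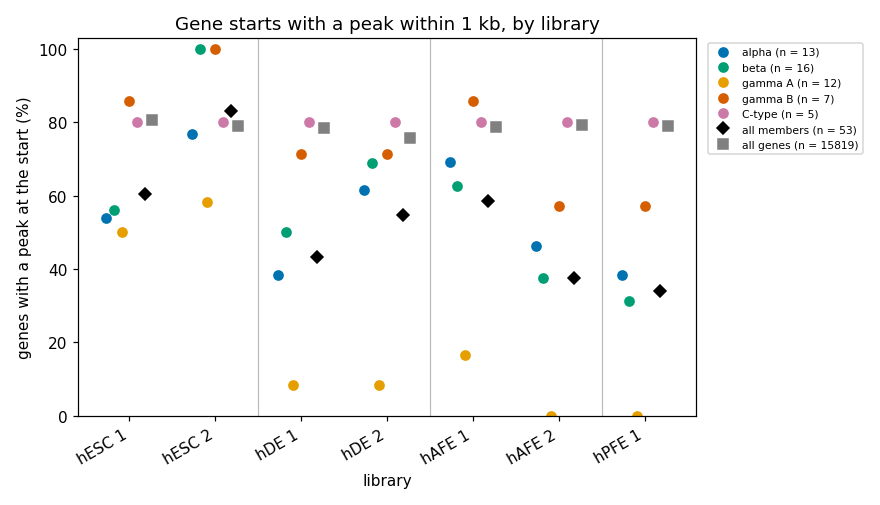
Share of genes with a peak within 1 kb of the start (vertical axis, %) in each of the 7 libraries (grey lines part the stages), for the 5 classes, all 53 members and all 15819 genes with a known start. The grey squares stay between 75.6% and 80.5%, while the black diamonds range from 34.0% in hPFE to 83.0% in hESC replicate 2.

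At 13 of the 53 members (24.5%) the start had a peak in an hESC library and in no other, against 2.11% of all genes. None of these 13 had it in both hESC libraries: 10 had it in hESC replicate 2 only (PCDHA13, PCDHB4, PCDHB6, PCDHB7, PCDHB12, PCDHGA1, PCDHGA3, PCDHGA4, PCDHGA9 and PCDHGB3) and 3 in hESC replicate 1 only (PCDHGA7, PCDHGA8 and PCDHGA12). The summits of PCDHGA7, PCDHGA8 and PCDHGA12 lay near the library's limit, at 3.79, 3.32 and 3.32 times the background, and 765 to 919 bp past the start. In hESC replicate 2, with a limit of 3.46, PCDHGA9 lay at 3.46, PCDHB12 and PCDHGA4 at 3.68, and PCDHB4 at 4.11. PCDHB6 and PCDHGA3 lay at 4.55 there, and PCDHGA1 at 5.41. PCDHGB3, PCDHA13 and PCDHB7 stood higher, at 7.36, 8.66 and 8.87. Many of these 13 starts thus rest on weak peaks of a single library. No member had a peak elsewhere and none in hESC, against 6.24% of all genes. This count was made after the values had been seen.

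From hESC to hDE, which the labels mark alike as analysed again, 14 members had lower ranks in both hDE libraries than in both hESC libraries, against 19.9% of all genes tested, and 1 was higher (PCDHGB7), against 9.13%. The 14 were 29.8% of the 47 members with a peak in any of the 4 libraries, and 1 of them had no peak in hDE at all. They were 5 beta genes (PCDHB3, PCDHB5, PCDHB8, PCDHB10 and PCDHB15), 3 alpha genes (PCDHA2, PCDHA8 and PCDHA9), 3 gamma B genes (PCDHGB2, PCDHGB4 and PCDHGB5), PCDHGA2, PCDHGA10 and PCDHAC2. PCDHB15 ranked 43409 and 42659 for hESC, 84896 and 150151 for hDE, 85076 and 124562 for hAFE and had no peak in hPFE, so that both hESC libraries stood above all others. PCDHA8 ranked 35599 and 69794 for hESC, 111030 and 147079 for hDE, 180184 and 172037 for hAFE and had no peak in hPFE. PCDHA2 was lowest in hDE and only slightly below hESC in hPFE, with 73223 and 81319, then 100200 and 129209, then 81084 and 98601, and 86462. The strongest hESC and hDE summits of PCDHA8 and PCDHA9 all lay 540 to 619 bp past the start. Those of PCDHA2 lay 573 bp past it in hESC replicate 2, 575 bp in hDE replicate 1, and before it in their partner libraries. With summits within 500 bp of the start, 11 members were lower (19.3% of all genes). The number higher was 5 without hESC replicate 2 (17.5% of all genes) and 5 without hDE replicate 2 (37.6%). The number lower was 37 without hESC replicate 1 and 23 without hDE replicate 1, where the shares of all genes were 37.2% and 57.4%. With the deposited fold enrichment in place of rank it was 7, against 8.13% of all genes.

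From hDE to hAFE, 5 members were higher (PCDHA2, PCDHA6, PCDHAC2, PCDHGC3 and PCDHGC4), against 24.7% of all genes, and 3 were lower (PCDHA8, PCDHB2 and PCDHB8), against 6.30%. These are 14.7% and 8.82% of the 34 members with a peak in these libraries. Of the 5 that were higher, 3 were C-type genes. PCDHA6 ranked 150149 in hDE replicate 2, 55 bp before the start, with no peak in hDE replicate 1. Its hAFE ranks were 145159, 574 bp past the start, and 82288, 47 bp before it. The summits of PCDHA2 lay 575 bp past the start in hDE replicate 1, 573 bp in hAFE replicate 2, and before it in their partner libraries. Both alpha calls thus mix summit positions. Within 500 bp of the start, 4 members were higher (24.2% of all genes). The count of higher starts was 12 without hDE replicate 1 (66.6% of all genes) and 21 without hAFE replicate 2 (40.3%). That of lower starts was 10 without hDE replicate 2 (33.9%), 9 without hAFE replicate 1 (9.91%) and 6 without hDE replicate 1 (12.4%). With summit height in place of rank no member was lower, against 2.12% of all genes.

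From hAFE to the single hPFE library, 3 members were higher (PCDHAC2, PCDHB1 and PCDHB13), against 34.0% of all genes, and 10 were lower, against 36.4%. The hPFE summit of PCDHB13 lay 908 bp past the start, at 3.53 times the background, while that in hAFE replicate 1 lay 42 bp before it. With summits within 500 bp of the start, 2 members were higher (34.0% of all genes). Of the 10, which were 32.3% of the 31 members tested, 4 had no peak in hPFE. They were 5 beta genes (PCDHB2, PCDHB5, PCDHB14, PCDHB15 and PCDHB16), PCDHA8, PCDHGB1, PCDHGB6, PCDHAC1 and PCDHGC4. A stage with 1 library overlaps less easily, so these shares are large over all genes too, and the share of lower members was near that background. The lower count was 27 without hAFE replicate 2 (49.4% of all genes) and 18 by summit height (85.2%), and the higher count was 11 without hAFE replicate 1 (44.9%) and 0 by summit height (5.1%).

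Between hESC and hPFE, the ends of the course, 19 members were lower, against 29.1% of all genes, and 4 were higher (PCDHA12, PCDHAC2, PCDHGB6 and PCDHGB7), against 37.4%. They are 40.4% and 8.51% of the 47 members tested, and 11 of the 19 had no peak in hPFE. PCDHB16 ranked 81372 and 31640 for hESC, 50306 and 67423 for hDE, 56597 and 67668 for hAFE and 145520 for hPFE, below every other library. By class the 19 were 7 of 16 beta genes, 4 of 13 alpha, 4 of 7 gamma B, 3 of 12 gamma A and 1 of 5 C-type genes. By summit height 26 were lower, where 55.6% of all genes were, and none was higher, where 7.76% were. The number lower was 39 without hESC replicate 1 (44.3% of all genes), and the number higher was 9 without hESC replicate 2 (50.5%). The comparison shares its hESC libraries with hESC to hDE and its hPFE library with hAFE to hPFE.

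The strict regions of the 7 libraries made 42 merged regions in the window, out of 129726 in the genome. Of the 42, 22 lay at a member start, 1 at the start of TAF7, a subunit gene of the general transcription factor TFIID that sits between the beta and gamma arrays, and 19 at neither. All 7 libraries had a peak in 25 of them, or 59.5%, against 30.6% of all regions, and all 7 were strict in 11, or 26.2%, against 11.2%. Of the 22 at member starts, 14 had a peak in all 7 libraries and 7 were strict in all 7, and of the 19 at neither, 10 and 3. The shares over all regions were not split into starts and other places, so the mix of places may differ. Stable regions, strict in every library of both stages, numbered 11 from hESC to hDE (15.8% of all regions), 12 from hDE to hAFE (16.4%), 17 from hAFE to hPFE (17.5%) and 13 from hESC to hPFE (14.4%).

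**Figure D5:**
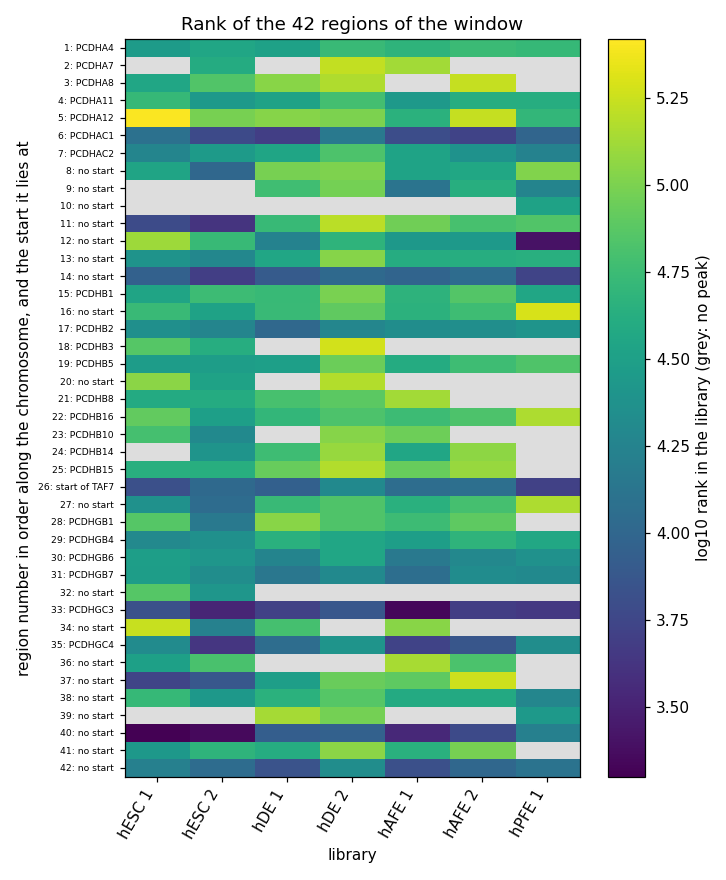
Rank of the 42 merged regions of the window (vertical axis, numbered along the chromosome and named by the member or TAF7 start they lie at) in each of the 7 libraries (log10 scale, darker is stronger, grey is no peak). Regions 6, 14, 33 and 40 are dark in all libraries, region 11 in hESC only, and region 12 is darkest in hPFE.

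Of the 5 strongest regions away from member starts, 4 were strict in all 7 libraries. The region at chr5:141524555-141525412, inside DIAPH1, an actin regulator gene next to the gamma array, lay 11580 bp past the gamma end and ranked 2028 and 2250 for hESC, 8651 and 9145 for hDE, 3521 and 5984 for hAFE and 16843 for hPFE. A region between the alpha and beta arrays, at chr5:141040560-141041488, 28213 bp past the alpha end, ranked 9033 and 4913 for hESC, 8070 and 10542 for hDE, 9627 and 11300 for hAFE and 5415 for hPFE. Of these 2, the former was higher in both hESC libraries than in both hDE libraries. A distal enhancer of the alpha genes is known between the alpha and beta arrays, and whether this region is that enhancer was not tested. Another region inside DIAPH1, at chr5:141560708-141561321, ranked between 6631 and 21733, and the start of TAF7 between 5128 and 20264.

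The regions among the constant alpha exons differed in their order of stages. The RefSeq table gives the constant region as starting at chr5:140978949, and 5 merged regions lie between there and the alpha end. At chr5:141001890-141002889 the ranks were 6045 and 4176 for hESC and then 53262 and 157617 for hDE, 91262 and 63604 for hAFE and 69545 for hPFE. The summit was 28.9 and 61.5 times the background in hESC and 7.42 to 13.1 in the other libraries, so both hESC libraries stood apart, but each later library kept a peak. Less than 2 kb further on, at chr5:141003856-141004644, both hESC libraries were instead the lowest by rank. That region ranked 128372 and 53657 for hESC, 17431 and 47420 for hDE, 26947 and 27277 for hAFE and 2546 for hPFE. Its summit height was 8.06 and 22.5 for hESC, 17.7 and 20.9 for hDE, 33.3 and 18.7 for hAFE and 32.2 for hPFE, so by height hESC replicate 2 stood above both hDE libraries and hAFE replicate 2. At chr5:140987933-140988565 hESC had no peak, and the ranks were 59337 and 94109 for hDE, 13065 and 42969 for hAFE and 18124 for hPFE, where hAFE lay above hDE without overlap. At chr5:140985940-140986974 the ranks were 34835 and 10178 for hESC, 96936 and 101712 for hDE, 33820 and 36578 for hAFE and 104699 for hPFE. The fifth, at chr5:140997944-140998220, had a peak in hPFE only, at rank 33039 and 8.83 times the background. The regions at 141001890 and 140985940 were singled out after their values were seen.

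The call of gain and loss needs a peak to be absent. With only 42 window regions, shares like those of all regions come to few calls. From hESC to hDE 0 of 42 regions were gained and 0 lost, against 5.43% and 1.15% of all regions, and from hDE to hAFE 0 and 0, against 2.05% and 3.20%. From hAFE to hPFE 2 were gained (4.76% of the 42) and 0 lost, against 8.45% and 4.18%. These were the hPFE region among the constant alpha exons and one inside DIAPH1 at chr5:141521070-141521699, which ranked 27617 in hPFE and also had peaks in hDE, at 136773 and 94340. From hESC to hPFE 3 were gained (7.14% of the 42) and 4 lost (9.52%), against 13.4% and 6.61%. The gained were the same 2 and the region at chr5:140987933-140988565. The lost were the starts of PCDHB8 and PCDHB15, a region inside DIAPH1 at chr5:141557672-141558180, and one at chr5:141512228-141512820, which begins 747 bp before the gamma end.

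The last of these ranked 5442 and 7567 for hESC, 30961 and 85406 for hDE, 78548 and 180423 for hAFE and had no peak in hPFE, so it stood highest in both hESC libraries. PCDHB8 ranked 39151 and 40487 for hESC, 63194 and 76934 for hDE and 132639 in hAFE replicate 1, with no peak in hAFE replicate 2 or hPFE. Counted between single libraries, 0 and 2 window regions were strict in an hESC replicate and absent from its partner, and of those strict in an hESC library 1 to 5 had no peak in an hDE library, 1 to 7 none in an hAFE library and 6 to 12 none in hPFE. Over all 129726 regions the same counts were 1040 and 2137 between the hESC replicates, 5637 to 7162 against hDE, 7403 to 8473 against hAFE and 15871 and 15906 against hPFE. No such region was found in the window between the hDE replicates, the hAFE replicates, or hDE and hAFE, in either direction, where all regions gave 61 to 1201 between replicates and 6882 to 12141 between these stages. The number lost from hESC to hPFE was 12 without hESC replicate 1, where 12.2% of all regions were lost.

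Genes known to act with the clustered protocadherins were read at their starts in the same way, beside the 70.4% of all genes with a peak in all 7 libraries and the 53.5% with a strict region. Of 14 genes of CTCF and cohesin, 11 had a known start, and all 11 had a peak in all 7 libraries and 10 a strict region. Of 18 genes of silencing and DNA methylation, 15 had a start, of which 14 had a peak in all libraries and 9 a strict region. Of 18 genes of protein partners and processing, 13 had a start, and all 13 had a peak in all libraries and 10 a strict region. The 12 non-clustered protocadherins lie outside the arrays, though PCDH1 and PCDH12 are also on chromosome 5. Of the 12, 10 had a start, of which 9 had a peak in all libraries and 5 a strict region. PCDH12 had no peak in any library.

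From hESC to hDE, where 9.13% of all genes were higher and 19.9% lower, 0 of 11 CTCF and cohesin genes were higher and 1 lower, 0 and 3 of 14 silencing genes, 2 and 4 of 13 partner genes, and 3 and 0 of 9 non-clustered protocadherins. From hDE to hAFE (24.7% higher and 6.30% lower) the numbers were 2 and 0, 4 and 0, 3 and 1, and 3 and 2 in the same order of lists. From hAFE to hPFE (34.0% and 36.4%) they were 7 and 1, 3 and 5, 4 and 5, and 1 and 3. Between hESC and hPFE (37.4% and 29.1%) they were 6 and 1, 6 and 1, 7 and 5, and 1 and 0. No difference between these lists and the clustered genes was tested.

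Markers of other cells were read beside these values. Of the neural markers, PAX6 ranked 57700 and 34698 for hESC, 58403 and 116021 for hDE and 98577 for hPFE, with no peak in hAFE, SOX1 ranked 41972 and 36025, then 34101 and 69273, then 53296 and 53924, and 9850, and NEUROD1 ranked 28776 and 40327, then 69335 and 111240, then 112185 and 85012, and 219095. Their ranks in hESC lay above those in hAFE for all 3. The number of the 3 that were strict was 2 and 3 for hESC, 1 and 0 for hDE, 0 and 0 for hAFE and 1 for hPFE. Of the mesenchyme markers only PRRX1 had a known start, with ranks of 26947 and 43352 in hESC, 32182 and 107486 in hDE and no peak later. Their part in the values of the protocadherin starts was not tested.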

How the data were processed

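The 7 peak lists, 1 per library and none pooled, were used as deposited. The lists have no header lines. Per the names of the deposited files, reads were trimmed, duplicates and mitochondrial reads were removed, and peaks were called on Tn5 cut sites with a p limit of 0.01 and a limit of 300000 peaks, followed by a further filter. The build was hg38 and DiffBind was used, per the submitters' processing notes. For the aligner, its handling of reads that match several members, and the peak caller: not given in the sources used here. Of the deposited columns, those used were the fold enrichment of a summit over its local background (a ratio), its −log10 p and its −log10 q. The deposited score, a display value, was not used.

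Pileup and background were recovered from fold and −log10 p as whole numbers of cut sites, in 100% of peaks within 0.001 of −log10 p, and this step was tested on simulated data. The members and gene lists were chosen with earlier results of these data known. Merging needed an overlap of at least 1 bp, on chromosomes 1 to 22 and X. A gene's start was the lower end of its RefSeq span (GRCh38.p14) on the plus strand and the upper end on the minus strand. The strand came from the promoter table, whose windows hold 250 bases before and 50 after a start, and members not in it were taken as plus. Other genes not in it were left out of the 15819 genes with a known start, while these members were kept. Where the table gave several windows, the first was used. A start was called higher or lower where all libraries of the later stage ranked above or below all of the earlier, a start without a peak counting below every peak, and genes without a peak in either stage were left out. A region was gained where each later library had it strict and no earlier library had a peak, and lost in the opposite case. The genes named were the 3 best by median rank and the 3 of widest stage difference per array, the C-type genes, PCDHB1, members gained, lost or without a peak, and, chosen after their values were seen, those in the lists of calls and of peaks in hESC only. Python 3.11.15, numpy 2.4.6, pandas 2.3.3, scipy 1.17.1 and matplotlib 3.10.9 were used.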

Additional observations from a re-analysis of the deposited data

How the results depend on the processing

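No paired analysis was possible because the results come from no test. Of 141 alternatives to 18 counts, 97 kept the count within 1.5 times and 44 did not. The members with a peak in all 7 libraries numbered 14 to 18 under every alternative, where 66.4% to 74% of all genes had one. Of these alternatives, leaving out the hPFE library (18, against 71.2% of all genes) was chosen after seeing the data. Those strict in all 7 numbered 3 with 25,000 strict regions (37.6% of all genes) and 12 with 100,000 (64.7%). They numbered 7 to 8 without any 1 library (53.5% to 58.5%). For window regions, the share of all regions with the same call at the same setting stands in parentheses. With 100,000 strict regions 1 window region was gained (6.48%) and 1 lost (2.51%) from hESC to hDE. At that setting 2 were lost from hAFE to hPFE (7.58%) and 12 from hESC to hPFE (8.89%). With 25,000 the numbers were 0 gained from hAFE to hPFE (5.34%), and 1 gained (9.73%) and 1 lost (3.6%) from hESC to hPFE. With a −log10 q of at least 5, 1 was gained from hESC to hDE (5.26%) and 4 were lost from hAFE to hPFE (7.84%). Where summits had to reach 10 times the background, 1 was gained (2.69%) and 1 lost (4.84%) from hAFE to hPFE. Without the flanks 1 was gained between these stages (8.45%). Leaving out a replicate gave 0 to 1 lost from hESC to hDE (1.75% to 3.26%) and 0 to 2 lost from hAFE to hPFE (7.73% to 8.69%). From hESC to hPFE 6 to 12 were then lost (12.2% to 12.3%).

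For member starts, the share of all genes with the same call stands in parentheses. Summit height in place of rank gave 0 higher from hESC to hDE (13.2%), 0 lower from hDE to hAFE (2.12%), 0 higher (5.1%) and 18 lower (85.2%) from hAFE to hPFE and 0 higher from hESC to hPFE (7.76%). The deposited fold gave 3 higher (18.5%) and 7 lower (8.13%) from hESC to hDE, 3 higher (51%) and 1 lower (3.03%) from hDE to hAFE, 0 higher (6.38%) and 18 lower (80.3%) from hAFE to hPFE and 2 higher from hESC to hPFE (16.9%). Summits within 2 kb gave 7 higher from hAFE to hPFE (34.0%). Leaving out a replicate gave 1 to 5 higher (14.9% to 37.6%) and 16 to 37 lower (23.8% to 57.4%) from hESC to hDE. From hDE to hAFE it gave 5 to 21 higher (29.1% to 66.6%) and 3 to 10 lower (9.91% to 33.9%). From hAFE to hPFE it gave 4 to 11 higher (44.9% to 50.5%) and 11 to 27 lower (49.4% to 55.1%). The numbers from hESC to hPFE were 5 to 9 higher (50.5% to 55.7%) and 23 to 39 lower (44.3% to 49.5%). The ends of a range of counts and of its shares need not come from the same replicate left out. Fewer libraries overlap less easily, which raises these counts, and those over all genes, by construction. Other causes were not tested. Weak peaks limit what can be said of most variable members, since their summits lie near the height at which a library's list ends.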

Other observations

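A region over a pseudogene of the beta array had peaks in the same libraries as the start of PCDHB3. The region at chr5:141155621-141156106, over PCDHB17P, ranked 111779 and 33192 in hESC and 150150 in hDE replicate 2, with no peak in the other 4 libraries. A region between PCDHGA12 and PCDHGC3, at chr5:141455323-141455790, had peaks in hESC only, at ranks 73227 and 26167. A region at chr5:141326048-141326749, with a summit 4300 bp before the start of PCDHGA1, ranked 23427 and 11250 for hESC, 54889 and 68085 for hDE, 44389 and 62210 for hAFE and 145521 for hPFE, so both hESC libraries lay above the other 5. These regions were singled out after their values were seen.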
